A study of Mus musculus with 15 samples.

Results

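Hearts of renalase (RNLS) knockout mice and of wild-type mice were compared after both had received a virus that drives RNLS in cardiomyocytes. In the wild type this came on top of the mouse's own gene. The comparison was of 3 KOCKD + RNLS libraries against 3 WTCKD + RNLS libraries, 6 of the 15 RNA-seq libraries of the study, chosen by their labels alone. All genes with 10 or more counts in 3 or more of these 6 libraries were tested, 12477 of the 17447 genes in the table.

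RNLS is a flavoprotein that is released by the kidney and is also made in the heart. In chronic kidney disease (CKD) the heart muscle thickens and scars, and the study asked whether RNLS in cardiomyocytes limits this. A gene that differs between the genotypes when both carry AAV9-cTnT-RNLS differs although RNLS was supplied to the cardiomyocytes of both. The comparison asks what genotype difference was present under this supply. Whether it was also present with a control vector is described further below.

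All mice were males of the C57BL/6J strain, 6 to 8 weeks old at the start, and each library came from the heart at 18 weeks after surgery. The knockout mice (rnls-/-) carried a germline disruption of the gene made with TALENs, whereas the wild-type mice came from another supplier, so the knockout and the source of the mice cannot be told apart. Both groups had CKD after removal of most of the kidney tissue, and both were injected at 2 weeks with AAV9-cTnT-RNLS, in which the troponin T promoter drives RNLS in cardiomyocytes. KOCKD and WTCKD, with 3 libraries each, were the same genotypes with CKD, injected with the vector in place of AAV9-cTnT-RNLS, and WTSHAM were 3 sham-operated wild-type hearts. Rnls itself was not analysed here, so the genotype rests on the labels. The deposited names of all KOCKD + RNLS libraries began with the same letters as that of WTCKD + RNLS replicate 3, and the other WTCKD + RNLS libraries began with other letters. What these letters stand for was not given in the sources used here.

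The 6 libraries held 10570211 to 13424078 counted reads. Cardiomyocyte markers were all present in every group, and their summed level was 110494 to 117249 CPM (a gene's count relative to the scaled size of its library) in WTCKD + RNLS and 107779 to 109050 CPM in KOCKD + RNLS. Lung markers, a check for tissue carried over at dissection, summed to at most 2 CPM in either group. WTCKD + RNLS replicate 2 stood apart from the other 5 libraries on the leading principal component, which held 35% of their variance, with a score of -36 against -1.16 to 14.6. On component 2 (26%) its score of 11.2 lay among those of KOCKD + RNLS (6.8 to 13.5). WTCKD + RNLS replicates 1 and 3 were at -25.1 and -15.8 there. The plot of list medians gives every pathway list and family with and without WTCKD + RNLS replicate 2.

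At an adjusted p under 0.05, edgeR called 57 genes (0.457% of the genes tested), 28 higher in KOCKD + RNLS (0.224%) and 29 lower (0.232%). DESeq2 called 353 (2.83%), 128 higher and 225 lower. By edgeR, 3 tubulins, enolase 3, the tropomyosins Tpm1 and Tpm2 and the mitochondrial ribosomal proteins Mrpl55 and Mrpl45 were among those that fell, and the interferon-inducible genes Xaf1 and Gbp3 were among those that rose. The size of these differences ran from 0.36 to 4.51 on the log2 scale with a median of 0.73, against a median of 0.15 over all genes, and 16 were at least 1. The 4.51 was that of 6330403K07Rik, which passed the filter on low counts through the knockout group alone. In all 57 the 3 KOCKD + RNLS libraries lay wholly above or wholly below the 3 WTCKD + RNLS libraries, which held for 21.8% of all genes tested. Genes were called for a gap between these same libraries, so neither this separation nor the larger size is further support.

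The calls were close to the threshold. Tuba4a alone had an adjusted p under 0.01 (0.00323 from edgeR's quasi-likelihood test). Without KOCKD + RNLS replicates 2 or 3, 8 genes each were called, and without WTCKD + RNLS replicates 1, 2 or 3 there were 7, 12 and 26, whereas 53 were called without KOCKD + RNLS replicate 1. All 57 genes kept their direction in each of these fits, but Tuba4a and Rsl24d1 were the only ones called in all 6 and 13 were called in none. Dynll2 was called in 5, Tnip1 and Lmo2 in 4, and Eno3, Mrpl55 and Tubb4b in 3 of these fits. Xaf1 was called in 1. Those called in none were 6330403K07Rik, Ubxn10, Ramp1, Gbp3, Eef1akmt1, Zfp672, Atg4d, Abcc1, Fbxo32, Vldlr, Epn2, Uaca and Tardbp.

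With the study's looser rule, a log2 fold change over 0.32 in size and an unadjusted p under 0.05, 1091 genes differed (8.74%), 516 higher (4.14%) and 575 lower (4.61%). Without WTCKD + RNLS replicate 2 these were 436 higher and 419 lower. An unadjusted p under 0.05 alone was reached by 2004 genes (16.1%).

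Tubulins build the microtubules that brace the cardiomyocyte and carry its transport. Tuba4a, an alpha-tubulin on chromosome 1 from 75211549 to 75215828 (ENSMUSG00000026202, mm9), stood at 1275, 1980 and 1577 CPM in WTCKD + RNLS and at 856, 657 and 753 CPM in KOCKD + RNLS. The groups did not overlap, and the knockout level was 2.13-fold lower (log2 fold change -1.09, standard error 0.13, adjusted p = 0.00323). In the hearts with the vector, Tuba4a was at 1212, 1042 and 1220 CPM in WTCKD and 1058, 1087 and 1054 CPM in KOCKD, so that the WTCKD + RNLS libraries were the highest of the 4 CKD groups and the KOCKD + RNLS libraries the lowest. Calling genes for the gap between the AAV9-cTnT-RNLS groups favours such an order.

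Tubb4b, a beta-tubulin, was likewise lowest in KOCKD + RNLS among the CKD groups. It was measured at 304, 412 and 388 CPM in WTCKD + RNLS and at 220, 177 and 216 CPM in KOCKD + RNLS (log2 fold change -0.85, standard error 0.13, adjusted p = 0.0163). Tuba8, an alpha-tubulin enriched in heart and skeletal muscle, was at 286, 453 and 384 CPM against 245, 180 and 220 CPM (log2 fold change -0.80, standard error 0.16, adjusted p = 0.0448). Replicate 2 was the highest of the WTCKD + RNLS libraries for each of these 3 genes.

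Of the 14 tubulin genes tested, 2 had a log2 fold change above 0 (50.1% of all genes did) and 3 were called lower (0.232% of all genes). The looser rule was met by 9 of the 14, all lower, against 4.61% of all genes for that rule and direction. Their median was -0.41 on the log2 scale, -0.32 without WTCKD + RNLS replicate 2 (6 genes at the looser rule). The median over all genes was 0.00. Tubb5 (-0.40, adjusted p = 0.0695) and Tubb6 (-0.64, adjusted p = 0.0874) were lower without passing the adjusted threshold. Tubulin genes resemble each other closely, so reads may be split between them, and 633 of the 2053 exon bases of Tuba4a lie opposite an exon of Stk16. Dynll2, a dynein light chain of microtubule transport, was called lower, at 682, 647 and 690 CPM against 471, 486 and 460 CPM (log2 fold change -0.51, adjusted p = 0.0105), and Ndel1, a regulator of dynein, fell by 0.51 on the log2 scale (adjusted p = 0.0458).

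**Figure D1:**
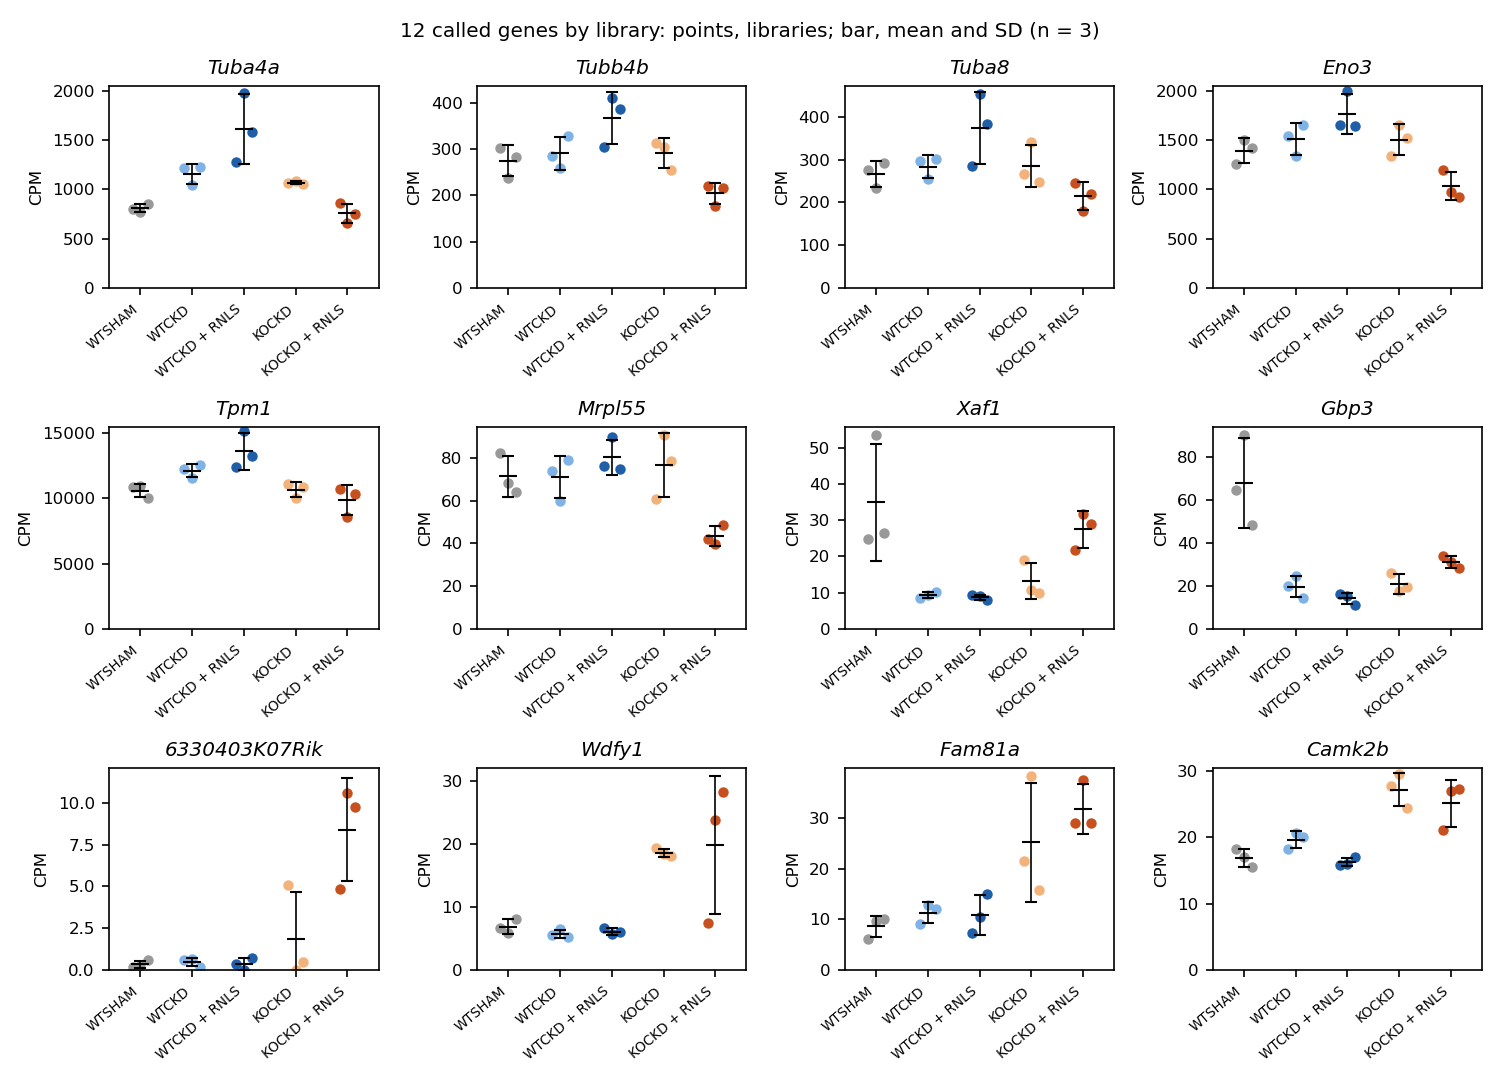
Levels of 12 called genes in each library, in CPM on linear axes from 0, with the 5 groups along the horizontal axis; points are libraries and bars give the mean and SD (n = 3). The 3 tubulins, Eno3, Tpm1 and Mrpl55 were lower in KOCKD + RNLS than in WTCKD + RNLS, while Wdfy1 stood at 7.38 CPM in 1 KOCKD + RNLS library and at 23.8 and 28.2 CPM in the other two.

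Among genes of the contractile apparatus, 1 of 35 sarcomere and Z-disc genes was called, against 0.457% of all genes. Tpm1, which encodes the main tropomyosin of heart muscle, was at 12414, 15157 and 13269 CPM in WTCKD + RNLS and 10765, 8601 and 10340 CPM in KOCKD + RNLS (log2 fold change -0.46, standard error 0.09, adjusted p = 0.0448). Its relative Tpm2, the beta-tropomyosin, was at 38.5, 39.9 and 30.2 CPM against 19.2, 18.3 and 23.2 CPM (log2 fold change -0.84, adjusted p = 0.034). The 35 genes had a median of -0.07, with 3 lower (4.61% of all genes) and 1 higher (4.14%) at the looser rule. Actc1, the cardiac alpha-actin, was 14617 ± 628 CPM (SD, n = 3) in KOCKD + RNLS and 20165 ± 5203 CPM in WTCKD + RNLS, with overlapping groups (adjusted p = 0.168). Neb, the thin filament protein nebulin, was the gene that was higher at that rule, at 14.3 ± 2.37 against 5.62 ± 3.03 CPM (adjusted p = 0.0709).

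None of 23 hypertrophy and fetal genes was called, and their median was 0.01 (-0.01 without WTCKD + RNLS replicate 2). Myh6, the main adult myosin, differed by less than the spread between libraries, at 45006 ± 1933 CPM in KOCKD + RNLS and 43616 ± 3390 CPM in WTCKD + RNLS (log2 fold change 0.05, adjusted p = 0.84). Myh7, the fetal myosin that rises in hypertrophy, was at 712, 185 and 742 CPM in WTCKD + RNLS and 1104, 2066 and 947 CPM in KOCKD + RNLS, without overlap but with an adjusted p of 0.345 (log2 fold change 1.33, standard error 0.67). Acta1, skeletal alpha-actin, was at 79.2, 698 and 435 CPM against 1224, 1101 and 597 CPM, and the groups overlapped (adjusted p = 0.321).

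Myl4, the atrial light chain, was at 7.74, 2.97 and 116 CPM in WTCKD + RNLS and 1.30, 2.15 and 1.59 CPM in KOCKD + RNLS. The fitted log2 fold change of -4.66 (adjusted p = 0.302) rests mainly on WTCKD + RNLS replicate 3. Of 16 atrial genes none was called and 14 were lower, with a median of -0.29 (-0.41 without WTCKD + RNLS replicate 2). The most abundant of them, Clu, was 887 ± 52.6 CPM in KOCKD + RNLS and 1176 ± 204 CPM in WTCKD + RNLS (adjusted p = 0.134). The share of atrial tissue in each sample was not tested as a source of these differences.

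Eno3, the muscle enolase of glycolysis on chromosome 11 from 70470704 to 70476015, was called lower, at 1652, 1995 and 1644 CPM in WTCKD + RNLS and 1194, 976 and 923 CPM in KOCKD + RNLS (log2 fold change -0.77, standard error 0.12, adjusted p = 0.0158). Slc25a5, which exchanges ADP for ATP across the inner mitochondrial membrane, was at 329, 391 and 307 CPM against 227, 230 and 224 CPM (log2 fold change -0.59, adjusted p = 0.0291). Gpd1, the cytosolic glycerol-3-phosphate dehydrogenase, was at 134, 122 and 112 CPM against 88.8, 68.8 and 83.9 CPM (log2 fold change -0.61, adjusted p = 0.0448). None of these groups overlapped. Dbi, the acyl-CoA-binding protein, fell by 0.71 on the log2 scale (adjusted p = 0.0314) and Stbd1, which binds glycogen, had a log2 fold change of -1.10 (adjusted p = 0.0374).

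Mitochondrial ribosomes translate the respiratory chain subunits encoded in the mitochondrial genome. Mrpl55, a protein of their large subunit, was at 76.4, 89.9 and 75 CPM in WTCKD + RNLS and 41.9, 39.8 and 48.5 CPM in KOCKD + RNLS (log2 fold change -0.89, standard error 0.15, adjusted p = 0.0187), a level that was also below the 59.99 to 90.8 CPM of the CKD hearts with the vector. Mrpl45 fell by 0.61 (adjusted p = 0.0466). Of 77 family members tested 74 were lower, with a median of -0.29. Of these, 2 were called lower (0.232% of all genes) and 30 were lower at the looser rule. Of 79 respiratory chain and ATP synthase subunits 78 were lower (median -0.28), 0 called and 19 at the looser rule, and all 80 cytosolic ribosomal proteins were lower (median -0.26), 0 called and 21 at the looser rule. For the looser rule and this direction the share of all genes was 4.61%. Rsl24d1, a factor for assembly of the large ribosomal subunit, was itself called, at 24.5, 30.1 and 23.8 CPM against 11.9, 12.8 and 13.7 CPM (log2 fold change -1.03, standard error 0.14, adjusted p = 0.0105).

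These 3 large families have short transcripts, and gene length moved with the comparison. The median log2 fold change rose from -0.13 in the shortest of 5 equal groups of genes by length to 0.09 in the longest. At the looser rule 273 genes were lower and 46 higher in the shortest group, against 40 lower and 163 higher in the longest. The 28 genes called higher had a median length of 5679 bases and the 29 called lower of 2798, against 3647 for all genes tested. Between KOCKD and WTCKD the trend ran the other way, from 0.13 in the shortest group to -0.12 in the longest.

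The trend rested mostly on WTCKD + RNLS replicate 2. In that library the shortest group was 0.35 above the longest on the log2 scale, relative to all libraries, whereas the other 5 lay between -0.26 and -0.13. Without it the shortest group had a median of -0.05 and the longest of 0.01. The medians then became -0.11 for the cytosolic ribosomal proteins, -0.11 for the mitochondrial ribosomal proteins and -0.12 for the respiratory chain, with 3, 4 and 2 genes lower at the looser rule. When a trend on length was removed from each library in the fit, the medians were -0.08, -0.15 and -0.08, while that of the tubulins was -0.35. With these offsets 45 of the 57 calls were still called. The part of RNA quality in the trend was not tested.

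**Figure D2:**
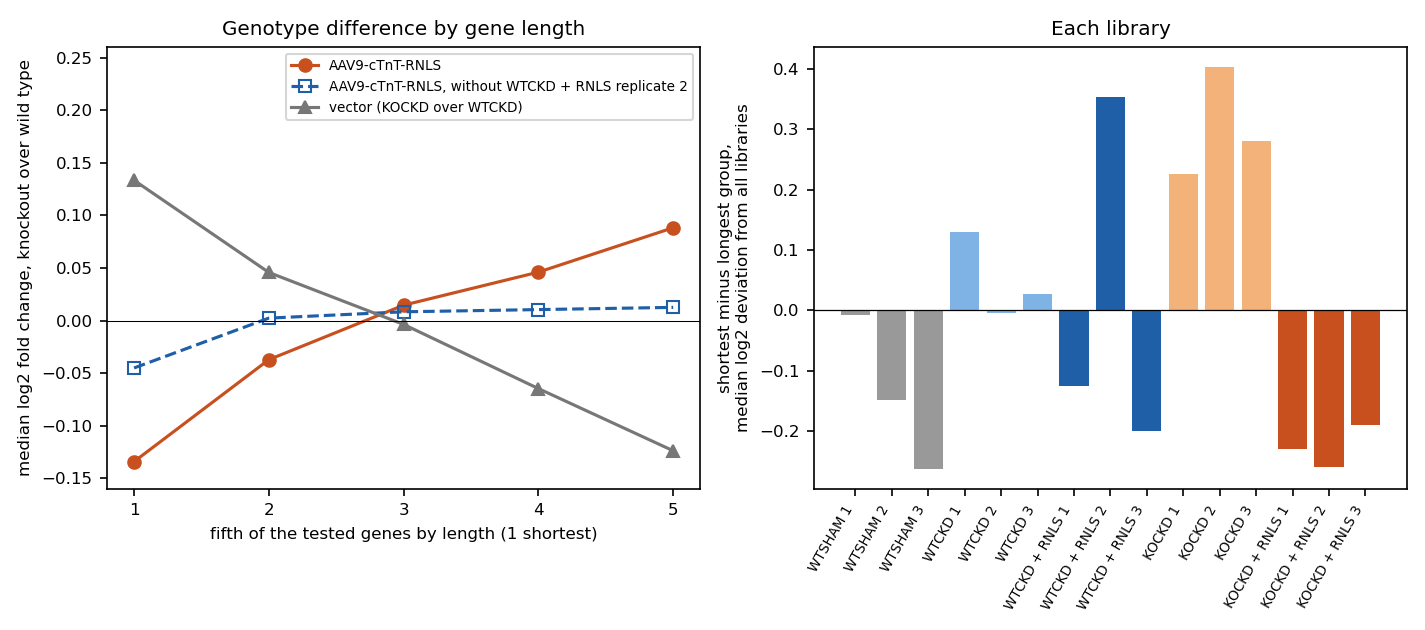
Left, median log2 fold change of knockout over wild type in 5 equal groups of genes ordered by length, with AAV9-cTnT-RNLS, the same without WTCKD + RNLS replicate 2, and with the vector; right, median log2 deviation of the shortest minus the longest group in each library. WTCKD + RNLS replicate 2 is at 0.35 and the other 5 libraries compared are between -0.26 and -0.13.

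Kcnj12, an inward rectifier potassium channel that sets the resting potential, was the only called gene of 28 action potential channels (0.457% of all genes). It was at 67.8, 55.1 and 64.2 CPM in WTCKD + RNLS and 39.9, 46.3 and 40.3 CPM in KOCKD + RNLS (log2 fold change -0.57, standard error 0.10, adjusted p = 0.0291). In the CKD hearts with the vector it was at 30.9 to 38.8 CPM in either genotype, so both AAV9-cTnT-RNLS groups stood above these. Noct, a phosphatase of NADP(H) with a daily rhythm, was at 79.5, 77.0 and 75.5 CPM in WTCKD + RNLS, 50.3, 40.2 and 38.9 CPM in KOCKD + RNLS and 31.5 to 40.1 CPM with the vector (log2 fold change -0.84, adjusted p = 0.033), so that KOCKD + RNLS overlapped the vector groups. Ramp1, a subunit of the receptor for calcitonin gene-related peptide, was at 17.1, 15.01 and 17.4 CPM against 6.24, 6.19 and 7.2 CPM (log2 fold change -1.34, adjusted p = 0.0486).

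Other genes called lower were Pdlim4, which binds actin (-1.24, adjusted p = 0.0291), and Pigbos1, a small mitochondrial protein (-1.50, adjusted p = 0.0448). Wrap53, a Cajal body and telomerase protein, had a log2 fold change of -1.05 (adjusted p = 0.0494), and Plac9a, which has a near-identical copy, of -1.61 (adjusted p = 0.0446). Slc9a3, the sodium-proton exchanger known from kidney and gut, had 20, 24 and 20 counts in WTCKD + RNLS and 5, 2 and 4 counts in KOCKD + RNLS (log2 fold change -2.48, adjusted p = 0.0187), and so passed the filter on low counts through the wild-type group. Also called lower were Eef1akmt1, Zfp672, Atg4d, Hhatl and Tardbp, with log2 fold changes of -0.78, -0.57, -0.52, -0.42 and -0.36. Some of these genes share exon bases with a gene on the opposite strand, 791 of 2541 for Atg4d (with Kri1) and 1817 of 7477 for Tardbp (with Masp2). Among the other named genes, so do Tuba8 (368 of 2225), Gpd1 (384 of 2961), Plscr3 (1333 of 3148, with Tnk1) and Acadvl (1151 of 2686, with Dvl2). Rsl24d1 shares 226 of 1716 with Gm20509 on the same strand. The strand option of the counting was not given in the sources used here.

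Interferon response genes are switched on by viral nucleic acids and by interferons. Of 43 tested, 2 were called higher, against 0.224% of all genes, and 31 were above 0, against 50.1%. Their median was 0.17. At the looser rule 5 were higher and 1 lower, against 4.14% and 4.61% of all genes. Xaf1, a pro-apoptotic factor on chromosome 11 from 72115131 to 72127235, was at 9.24, 9.08 and 7.95 CPM in WTCKD + RNLS and 21.8, 31.8 and 28.9 CPM in KOCKD + RNLS, a 3.14-fold difference (log2 fold change 1.65, standard error 0.28, adjusted p = 0.0226). Gbp3, a guanylate-binding protein of cell defence on chromosome 3 from 142223016 to 142236173, was at 16.3, 15.1 and 11.2 CPM against 34.0, 31.0 and 28.5 CPM (log2 fold change 1.14, standard error 0.23, adjusted p = 0.0448).

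The levels of both genes also varied outside this comparison. Xaf1 was at 18.9, 10.7 and 10.01 CPM in KOCKD, 8.57 to 10.2 CPM in WTCKD and 24.9 to 53.5 CPM in WTSHAM, and Gbp3 at 48.5 to 90.0 CPM in WTSHAM, so sham hearts without CKD reached or exceeded the KOCKD + RNLS level. Ifit2, which binds foreign RNA, was 31.4 ± 10.9 CPM in KOCKD + RNLS and 18.1 ± 1.18 CPM in WTCKD + RNLS (adjusted p = 0.136). Oasl1 was 5.09 ± 1.82 against 2.46 ± 0.91 CPM (adjusted p = 0.201). Jak1, the kinase of the interferon receptors, was called higher, at 270, 287 and 307 CPM against 187, 226 and 204 CPM (log2 fold change 0.49, adjusted p = 0.0187). Tnip1, which restrains NF-kB, was called higher as well, at 65.0, 66.4 and 59.3 CPM against 41.4, 41.6 and 44.7 CPM (log2 fold change 0.58, adjusted p = 0.0151).

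A promoter of Gbp3 is shown because the interferon-stimulated response element has a recognisable core. This core, GAAA followed after any 2 bases by another GAAA, was searched on both strands of the 250 bases before each gene start in RefSeq (GRCm38.p6), where 978 of 32851 promoters (2.98%) held it. Of the 31 tested interferon genes with a promoter in that table, 18 held it, against 3.12% of the 9959 tested genes with one. The list was made of interferon response genes, so this share is no result about the genotypes. The median log2 fold change was 0.18 for tested interferon genes with the core and 0.14 for those without it. Gbp3 has 2 promoters in the table. In that at chr3:142559794-142560043, plus strand, overlapping matches on the opposite strand begin 45 and 39 bases before the start and are in capitals. In the other, at chr3:142560106-142560355, and in that of Xaf1 no match was found.

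Gbp3: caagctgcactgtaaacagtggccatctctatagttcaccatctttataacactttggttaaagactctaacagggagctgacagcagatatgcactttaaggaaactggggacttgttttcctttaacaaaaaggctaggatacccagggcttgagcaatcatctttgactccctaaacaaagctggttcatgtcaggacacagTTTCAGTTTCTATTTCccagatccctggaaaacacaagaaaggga

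Ltbp4, which anchors latent TGF-beta in the matrix, was the most abundant gene called higher and the only called gene of 30 in that pathway (0.457% of all genes). It was at 578, 523 and 560 CPM in KOCKD + RNLS and 329, 326 and 429 CPM in WTCKD + RNLS (log2 fold change 0.61, adjusted p = 0.0466). Fbxo32, the atrophy ubiquitin ligase atrogin-1, was at 238, 263 and 236 CPM against 182, 171 and 190 CPM (log2 fold change 0.44, adjusted p = 0.0448). Vldlr, a receptor for triglyceride-rich lipoproteins, was at 417, 461 and 448 CPM against 319, 320 and 350 CPM (log2 fold change 0.42, adjusted p = 0.0493). For Ltbp4, Fbxo32 and Vldlr the WTCKD libraries lay above all 3 WTCKD + RNLS libraries, at 492 to 580, 243 to 267 and 410 to 468 CPM. Genes called higher were chosen in part for a low WTCKD + RNLS level, which favours such an order.

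Hsd17b7, an enzyme of cholesterol synthesis, was the only called gene of 31 in the sterol list (0.457% of all genes). It was at 23.9, 28.3 and 24.5 CPM in KOCKD + RNLS and 12.4, 10.01 and 16.4 CPM in WTCKD + RNLS (log2 fold change 0.97, adjusted p = 0.0494). Prlr, the prolactin receptor, was at 19.4, 22.4 and 21.8 CPM against 8.49, 10.2 and 14.3 CPM (log2 fold change 0.94, adjusted p = 0.0286). Aqp8, a water channel, had low levels of 2.59, 4.45 and 4.11 CPM against 0.83, 1.30 and 1.22 CPM (log2 fold change 1.73, adjusted p = 0.033). Ubxn10 was at 18.3, 10.9 and 12.2 CPM against 2.66, 3.80 and 3.52 CPM (log2 fold change 2.06, adjusted p = 0.0374). In all 4 the groups were apart, and in Hsd17b7, Prlr, Aqp8 and Ubxn10 the WTCKD libraries were also above each WTCKD + RNLS library. The choice of genes favours that order here too.

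Smaller differences were called for Cpxm2 (0.73), Prps2 (0.73) and Klhl33 (0.91), and for Smarca2 (0.44), the ATPase of a chromatin remodelling complex. Abcc1 (0.49), a transporter of glutathione conjugates, Ptprm (0.40), Uaca (0.38) and 3425401B19Rik (0.43) were also called higher. With the vector Smarca2 had a log2 fold change of -0.20 in KOCKD against WTCKD (unadjusted p = 0.0174 from edgeR).

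Lmo2, a transcription factor of blood vessels and blood cells, was called higher, at 35.5, 32.8 and 36.3 CPM against 21.0, 23.7 and 23.9 CPM (log2 fold change 0.61, standard error 0.09, adjusted p = 0.0163), and so was Myct1, an endothelial gene, at 33.2, 32.5 and 45.0 CPM against 26.8, 22.3 and 19 CPM (log2 fold change 0.70, adjusted p = 0.0446). All 10 endothelial markers were above 0, with a median of 0.17, 0 called and 2 higher at the looser rule (4.14% of all genes), and 8 of 10 without WTCKD + RNLS replicate 2 (median 0.14). Npr3, the clearance receptor for natriuretic peptides, was 16.7 ± 5.13 against 7.47 ± 2.01 CPM (adjusted p = 0.107), and Vwf, von Willebrand factor, 66.1 ± 27.7 against 41.1 ± 11.1 CPM (adjusted p = 0.31). The summed level of the 10 endothelial markers was 1655 to 1725 CPM in KOCKD + RNLS and 1441 to 1608 CPM in WTCKD + RNLS, with no defining marker at 0. In bulk tissue more cells of a type and more RNA per cell cannot be told apart.

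No macrophage, complement or MHC class II gene was called. Of 10 macrophage markers 8 were below 0 and 3 lower at the looser rule, against 4.61% of all genes, and 50.1% of all genes were above 0. Cd68, a lysosomal marker of macrophages, was 6.86 ± 2.55 CPM in KOCKD + RNLS and 13.1 ± 1.5 CPM in WTCKD + RNLS, just outside the threshold (adjusted p = 0.0504). C1qa, the most abundant of them, was 42.2 ± 8.26 against 54.3 ± 5.21 CPM (adjusted p = 0.209). Of 19 complement genes 13 were below 0 (median -0.23), with 4 lower at the looser rule and 1 without WTCKD + RNLS replicate 2. C4b was 21.6 ± 2.49 against 43.6 ± 20.8 CPM (adjusted p = 0.156), and C3, the most abundant, 275 ± 55.2 against 335 ± 72.9 CPM (adjusted p = 0.556). Summed macrophage markers were 141 to 196 CPM in KOCKD + RNLS and 166 to 209 CPM in WTCKD + RNLS, which overlapped. Of 10 MHC class II presentation genes 7 were below 0 (median -0.19), with Ctss, a cysteine protease of antigen processing, at 13.1 ± 2.89 against 23.7 ± 5.47 CPM (adjusted p = 0.0798) and Cd74 at 101 ± 30.5 against 98.3 ± 8.64 CPM (adjusted p = 0.968).

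No gene of the collagen, collagen processing, basement membrane and matricellular lists was called. All 8 fibrillar collagen genes were below 0, with a median of -0.19 and 0 at the looser rule, and without WTCKD + RNLS replicate 2 the median was -0.36 with 1 gene lower at that rule. Col3a1 was 65.3 ± 13.3 CPM in KOCKD + RNLS and 79.0 ± 12.7 CPM in WTCKD + RNLS (log2 fold change -0.27, standard error 0.24, adjusted p = 0.616), and Col1a2 86.9 ± 16.6 against 98.1 ± 9.45 CPM (adjusted p = 0.689). Of 18 collagen processing genes 4 were lower at the looser rule (median -0.12), against 4.61% of all genes, and 6 without WTCKD + RNLS replicate 2 (median -0.20). Among the 4 were Serpinh1, the collagen chaperone, at 160 ± 1.61 against 226 ± 23.5 CPM (adjusted p = 0.0893) and Lox, a crosslinking enzyme, at 2.14 ± 0.31 against 3.82 ± 1.30 CPM (adjusted p = 0.209). P4hb, the most abundant of that list, was 259 ± 8.72 against 267 ± 11.2 CPM (adjusted p = 0.792). Of 20 basement membrane genes 15 were above 0 (median 0.10), but 9 without WTCKD + RNLS replicate 2 (median -0.02), with Hspg2, perlecan, at 744 ± 19.5 against 621 ± 116 CPM (adjusted p = 0.352). Sparc, the most abundant of 19 matricellular genes, was 311 ± 40.5 against 250 ± 35.0 CPM (adjusted p = 0.258).

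In the fatty acid oxidation, PPAR and fuel switch, heat shock and antioxidant lists no gene was called. Acadvl, the very-long-chain acyl-CoA dehydrogenase of fatty acid oxidation, came closest, at 1077 ± 101 CPM in KOCKD + RNLS against 1511 ± 208 CPM in WTCKD + RNLS (adjusted p = 0.0503). Of 24 fatty acid oxidation genes 19 were below 0 and 4 lower at the looser rule (median -0.13, and -0.02 with 1 gene without WTCKD + RNLS replicate 2). The most abundant, Hadha, was 1921 ± 139 against 2170 ± 193 CPM (adjusted p = 0.338). Among 34 PPAR and fuel switch genes, the most abundant, Lpl, the lipase that frees fatty acids from lipoproteins, was 6568 ± 267 against 6684 ± 1081 CPM (adjusted p = 0.924).

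Of 39 heat shock and unfolded protein genes 34 were below 0 (median -0.17) and 3 were lower at the looser rule, against 4.61% of all genes. Without WTCKD + RNLS replicate 2 these were 29, with a median of -0.10, and 1. Hspe1, the mitochondrial chaperonin, was among the 3 (72.4 ± 1.02 against 104 ± 19.6 CPM, adjusted p = 0.144). Hspb7, the most abundant, was 4344 ± 336 against 4449 ± 385 CPM (adjusted p = 0.917). Sod2, the mitochondrial superoxide dismutase, was 688 ± 11.9 against 855 ± 119 CPM (adjusted p = 0.113), the most abundant of 33 antioxidant genes. Fkbp5, induced by glucocorticoids, was 18.9 ± 4.57 against 43.6 ± 22.1 CPM (adjusted p = 0.135), in a list of 28 with Fbxo32 as its only called gene (0.457% of all genes).

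No gene of the clock, calcium handling, cell cycle and immediate early lists was called. Of 15 core clock genes 1 was lower at the looser rule (median -0.02, and -0.08 with 0 genes without WTCKD + RNLS replicate 2), with the most abundant, Nr1d2, at 156 ± 18.7 against 138 ± 13.8 CPM (adjusted p = 0.69). Of 6 clock output factors 0 met either rule (median 0.13, and 0.07 without WTCKD + RNLS replicate 2), with Tef at 287 ± 8.02 against 255 ± 11 CPM (adjusted p = 0.789). Atp2a2, the calcium pump of the sarcoplasmic reticulum, was 17008 ± 280 against 16820 ± 1438 CPM (adjusted p = 0.944), and its list of 34 had a median of -0.01. The 31 cell cycle genes had a median of 0.09, and 0.24 without WTCKD + RNLS replicate 2. Ccnd2, the most abundant of them, was 233 ± 37.8 against 165 ± 21.3 CPM without overlap (adjusted p = 0.0721). Jund, the most abundant of 28 immediate early genes, was 100 ± 1.5 against 118 ± 5.35 CPM (adjusted p = 0.395). Canx (MHC class I presentation) and Nnt (NAD metabolism) were the most abundant of their lists, with log2 fold changes of 0.04 and 0.27 and adjusted p of 0.87 and 0.218.

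**Figure D3:**
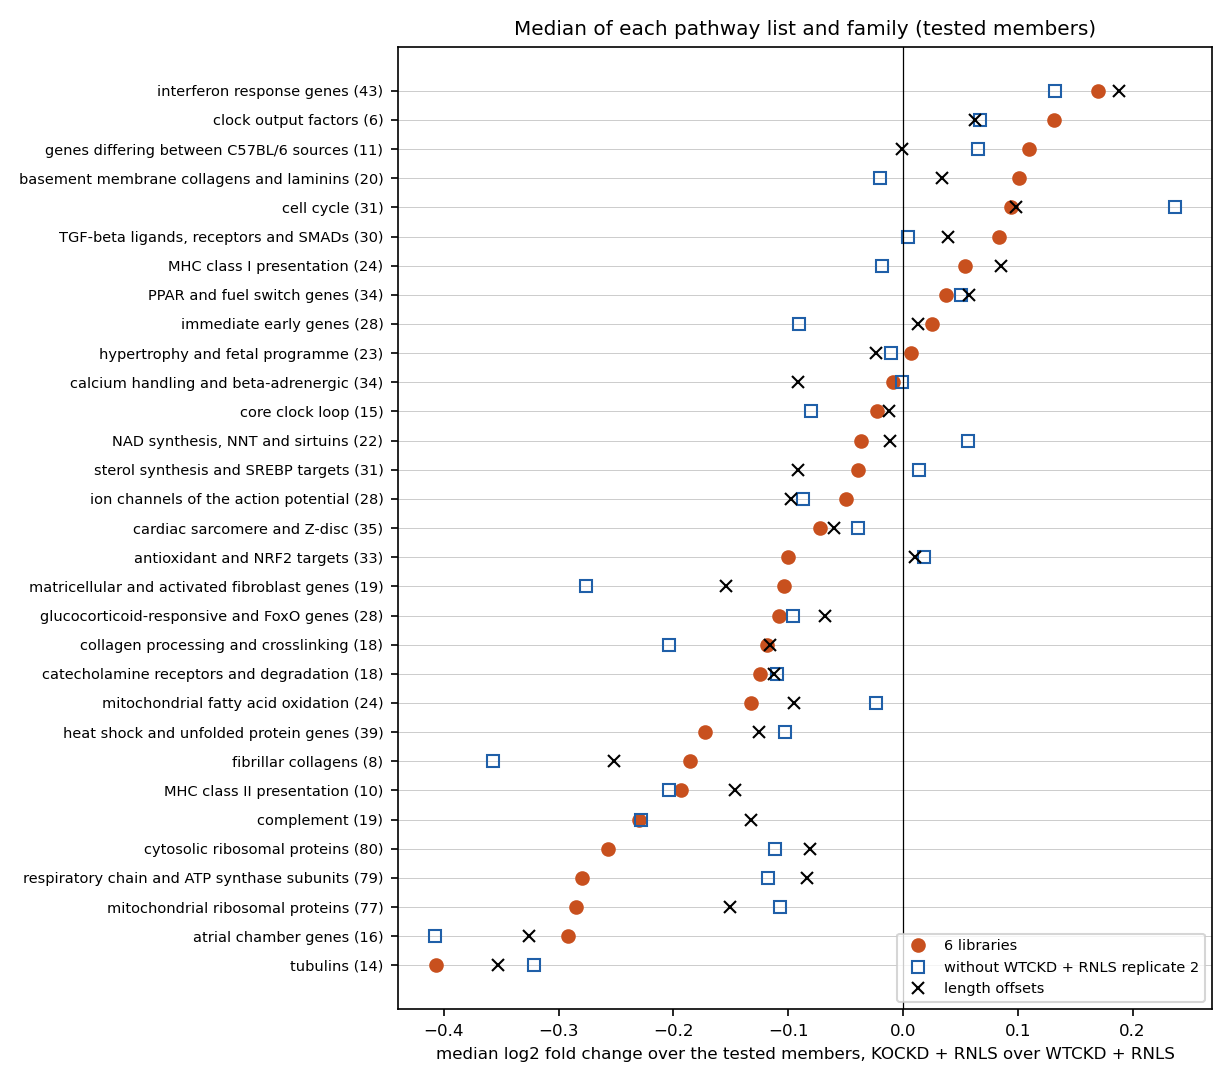
Median log2 fold change of KOCKD + RNLS over WTCKD + RNLS for each pathway list and family, cell type markers left out, with 5 or more tested members (number in brackets), in the 6 libraries (filled circles), without WTCKD + RNLS replicate 2 (squares) and with length offsets (crosses). Of these, tubulins have the lowest median (-0.41) and interferon response genes the highest (0.17) in the 6 libraries, and the ribosomal and respiratory chain families move toward 0 in both alternatives.

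The other markers showed no called gene. Fibroblast markers summed to 2177 to 2483 CPM in KOCKD + RNLS and 1849 to 2636 CPM in WTCKD + RNLS, with Gsn the most abundant (adjusted p = 0.783). Pericyte and smooth muscle markers summed to 1778 to 2002 against 1628 to 1898 CPM, with Rgs5 the most abundant (adjusted p = 0.467). Of 6 erythrocyte genes tested all were below 0 with a median of -1.14, and Hbb-bs was at 46.8, 114 and 185 CPM against 337, 297 and 138 CPM, which overlapped (adjusted p = 0.434). Cd4 was the only lymphocyte marker above the filter (adjusted p = 0.968). The most abundant adipocyte, epicardial, skeletal muscle, neural and Y-linked markers, Fabp4, Wt1, Ckm, Cryab and Ddx3y, had adjusted p of 0.981, 0.956, 0.626, 0.334 and 0.26. Ckm was also listed as a cardiomyocyte marker and Fabp4 as an endothelial marker, so neither stands for skeletal muscle or adipocytes alone. Of 7 neural markers tested 6 were below 0 (median -0.31, and -0.51 without WTCKD + RNLS replicate 2). Of 3 adipocyte and 3 skeletal muscle markers tested, 1 in each list was lower at the looser rule, against 4.61% of all genes.

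The same genotypes were compared with the vector in 6 other libraries. Here the deposited names of all KOCKD libraries began with other letters than those of all WTCKD libraries. What these letters stand for cannot be told apart from genotype in this comparison. Between KOCKD and WTCKD 0 genes were called (0%) by edgeR, with 1284 at an unadjusted p under 0.05 (10.3%), and 9 by DESeq2 (0.0721%). Of the 57 genes called with AAV9-cTnT-RNLS, 31 had the same sign and 26 the opposite sign with the vector, against 42.03% of all genes with the same sign, and their median size there was 0.13, close to the 0.13 of all genes. Across the 12477 genes the log2 fold changes of both genotype comparisons had a Pearson correlation of -0.01, given as a description, since genes are not independent replicates. The difference of the genotype differences itself was called for 0 genes by edgeR (2278 at an unadjusted p under 0.05, 18.3%) and for 355 by DESeq2 (2.85%). At an unadjusted p under 0.05 there were 1519 with length offsets and 1613 without WTCKD + RNLS replicate 2. The trend on gene length ran opposite ways in the 2 genotype comparisons. Its part in the share of same signs and in the correlation was not tested. Of the 57 genes, 48 had an unadjusted p under 0.05 in the test of the difference of the genotype differences. They were called for a large difference with AAV9-cTnT-RNLS, which is itself a part of that test. A high count was therefore favoured by the choice of genes. The smallest adjusted p over all genes was 0.0996, so by edgeR no gene's genotype difference was shown to depend on AAV9-cTnT-RNLS.

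Of the 57 called genes, 8 had an unadjusted p under 0.05 in the same direction between KOCKD and WTCKD, where edgeR called no gene. Wdfy1, an endosomal adaptor of Toll-like receptor signalling on chromosome 1 from 79698837 to 79772718, was at 19.4, 18.4 and 18.1 CPM in KOCKD and 5.51, 6.46 and 5.20 CPM in WTCKD (log2 fold change 1.70, unadjusted p = 9.62e-05 and adjusted p = 0.3 from edgeR). With AAV9-cTnT-RNLS it was at 7.38, 23.8 and 28.2 CPM in the knockout and 6.66, 5.65 and 5.96 CPM in the wild type, a difference of 1.69 ± 0.33 (SE) on the log2 scale (adjusted p = 0.038). KOCKD + RNLS replicate 1 was thus near the wild-type level, and the other 2 were above the KOCKD libraries. In WTSHAM it was 5.82 to 8.13 CPM. Wdfy1 was the only called member of 11 genes listed for differing between sources of C57BL/6 mice, against 0.457% of all genes.

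Fam81a was at 21.5, 38.3 and 15.7 CPM in KOCKD and 29.0, 37.5 and 29.1 CPM in KOCKD + RNLS, against 9.07 to 12.9 CPM in WTCKD and 7.24 to 15.1 CPM in WTCKD + RNLS (log2 fold change 1.54 with AAV9-cTnT-RNLS, adjusted p = 0.0377, and 1.15 with the vector, unadjusted p = 0.0014). Camk2b, a subunit of the calcium/calmodulin-dependent kinase, was at 21.1, 27 and 27.3 CPM in KOCKD + RNLS and 15.8, 15.9 and 17.0 CPM in WTCKD + RNLS (log2 fold change 0.63, adjusted p = 0.034), with 24.5 to 29.5 CPM in KOCKD and 18.2 to 20.6 CPM in WTCKD (0.47, unadjusted p = 0.000931). The other members of the 8 had log2 fold changes with the vector of 0.49 for Myct1 (unadjusted p = 0.00224), 0.42 for Lysmd2 (0.78 with AAV9-cTnT-RNLS), -0.70 for Stbd1 (unadjusted p = 0.00366), -0.74 for Plac9a and -0.30 for Rsl24d1.

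**Figure D4:**
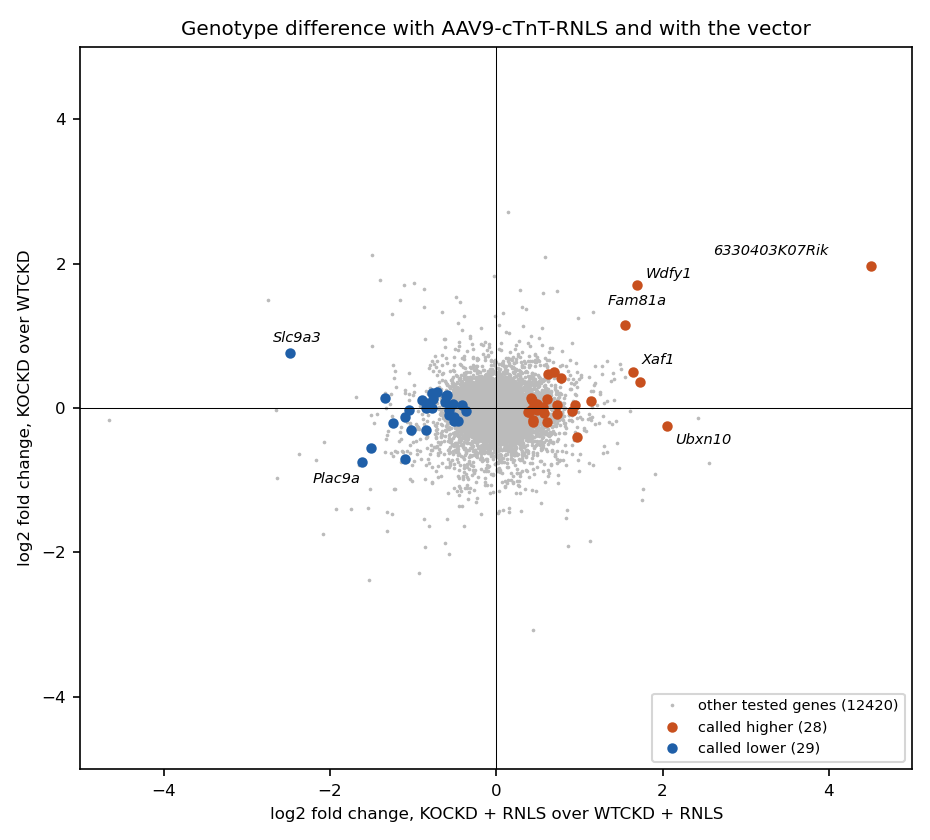
Log2 fold change of each tested gene between the genotypes with AAV9-cTnT-RNLS (horizontal) against with the vector (vertical), with the 28 genes called higher and the 29 called lower with AAV9-cTnT-RNLS in colour. Wdfy1 and Fam81a lie away from 0 on both axes, while most called genes lie close to 0 on the vertical axis.

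The called genes were unevenly placed along the genome. Positions in mm9 were found for 10985 tested genes and 52 called ones. Chromosome 11 held 15 of the 52 (28.8%) and 8.6% of the tested genes with a position. Chromosome 9 came next by share, with 7 of 633 tested genes called (1.11%, against 1.59% on chromosome 11). Of these, Uaca, Tpm1, Fam81a, Rsl24d1 and Lysmd2 started between 60642355 and 75473539. At the looser rule 11.2% of chromosome 9 differed, against 8.73% of all genes with a position. Of the 15 on chromosome 11, 12 lay between 50 and 75 Mb, where 263 genes were tested (2.39%). Of the 8 pairs of called genes less than 1 Mb apart, 7 were there, and the other was Smarca2 and Vldlr on chromosome 19. The 12 genes in this stretch of chromosome 11 were Pdlim4, Zfp672, Mrpl55, Kcnj12, Ndel1, Wrap53 and Eno3, which were lower in KOCKD + RNLS, and Tnip1, Epn2, Plscr3, 6330403K07Rik and Xaf1, which were higher. Of these, 6330403K07Rik, also counted in a pair with Eno3, passed the filter through the knockout group alone. Epn2, an endocytic adaptor, and Plscr3, a scramblase of mitochondrial lipids, had log2 fold changes of 0.42 and 0.56.

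At the looser rule 52 genes of that stretch differed with AAV9-cTnT-RNLS (19.8%), against 8.46% of the genes elsewhere, and 12 differed with the vector (4.56%, against 5.64% of the genes elsewhere and 5.66% of all genes tested). Without WTCKD + RNLS replicate 2 the share was 18.6% there and 6.7% elsewhere, although 2 of its genes were then called. With length offsets it was 18.3% and 6.99%, with 12 called. The limits of the stretch were set after the positions were seen, and neighbouring genes were not taken as independent.

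In this stretch 6330403K07Rik, a gene of unnamed function on chromosome 11 from 70845451 to 70847015, was nearly absent from the wild type, with 4, 0 and 9 counts in WTCKD + RNLS and 60, 128 and 104 counts in KOCKD + RNLS. These are 0.33, 0 and 0.69 CPM against 4.86, 10.6 and 9.73 CPM (log2 fold change 4.51, standard error 0.94, adjusted p = 0.0486), and the gene passed the filter through the knockout group. In KOCKD, replicate 1 was at 5.08 CPM and replicates 2 and 3 at 0 and 0.48 CPM, while WTCKD and WTSHAM libraries were at 0.17 to 0.65 CPM. The same KOCKD library was the high one for Xaf1 (18.9 CPM against 10.7 and 10.01). Whether the knockout mice differ from each other in this stretch was not tested, since the files hold no genotypes.

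**Figure D5:**
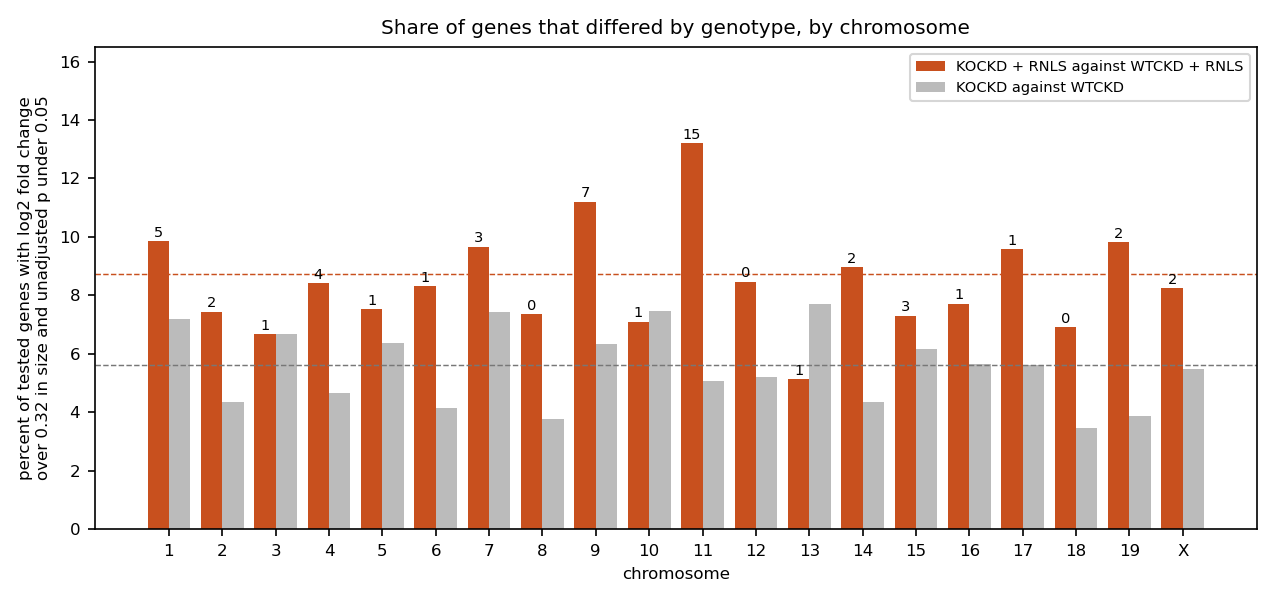
Percent of the tested genes on each chromosome with a log2 fold change over 0.32 in size and an unadjusted p under 0.05 between knockout and wild type, with AAV9-cTnT-RNLS (dark) and with the vector (grey); dashed lines are the shares over all chromosomes and the numbers over the dark bars count genes called at an adjusted p under 0.05. Chromosome 11 is highest with AAV9-cTnT-RNLS, at 13.2% with 15 called genes, and is at 5.08% with the vector.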

How the data were processed

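Heart RNA of 15 mice was sequenced from stranded mRNA libraries. Per the paper's methods, the authors trimmed reads with Trimmomatic, mapped them to mm9 with hisat2 and counted them with htseq-count. GEO's processing notes list GRCm39 instead. The deposited counts are raw whole numbers. FPKM values that the authors deposited beside them (cufflinks) served here for gene length only. R 4.3.3 with edgeR 4.0.16 (TMM, quasi-likelihood test, a model with group alone, fitted to the 15 libraries, Benjamini-Hochberg adjustment over 12477 genes) gave all tests and CPM, and DESeq2 1.42.0 was an alternative. The code was tested on simulated counts. Exon and gene positions are those of GENCODE vM1 on mm9 by symbol, and promoters those of RefSeq on GRCm38.p6.

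The comparison, the lists and the genes were chosen with earlier results of these data known. Named are the called genes, including the 12 largest rises and falls with a mean log2 CPM over 1, and each list's called genes or else its most abundant member. Tubulin, ribosomal and respiratory chain families, and the genes Col3a1, Myh7, Acta1, Myl4, Vwf, Npr3, Tubb5, Tubb6, Lox, Serpinh1, Oasl1, Ifit2, Actc1, C4b, Ctss, Cd68, Hspe1, Acadvl, Fkbp5 and Neb, were chosen after their values were seen. Labels give a group and a replicate number, and the paper gives n = 3 per group, so each library was taken as 1 mouse. The p-values rest on a spread between libraries of a group that was estimated over all 5 groups. A fit to the 6 libraries alone kept 22 of the 57 calls. Rnls is not analysed here, and some other genes are not reported here.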

Additional observations from a re-analysis of the deposited data

How the results depend on the processing

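The 57 called genes had the same direction in the 13 alternative fits of the comparison, but their number depended on the tool and on single libraries. DESeq2 called 353 genes, 128 higher and 225 lower, including 55 of the 57 (2 had no adjusted p in DESeq2). No filter on low counts gave 87 (44 higher), the 6 libraries alone 39 with 16 higher, a filter over all 15 libraries 44, RLE size factors 54 and length offsets 66. The replicate numbers did not pair the mice (correlations of the deviations 0.01, 0.01 and -0.07), and a replicate block gave 33 genes, 14 higher and 19 lower. Leaving out 1 library gave 7 to 53 called genes, 0 to 21 higher and 5 to 32 lower. The interaction test gave 0 genes in all edgeR fits with all libraries, 355 with DESeq2 and 0 to 2 without 1 library. Of the pathway and marker list members, without the tubulin, ribosomal and respiratory chain families, 8 were called, 5 with the 6 libraries alone, 32 with DESeq2 and 0 to 6 without 1 library.

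Uncalled genes near 0 changed sign. With length offsets Myh6 was at -0.023, Atp2a2 at -0.042 and Ckm at 0.0044 on the log2 scale. Without 1 library the ranges were -0.011 to 0.11 for Canx, -0.12 to 0.27 for Cd74, -0.01 to 0.082 for Myh6, -0.044 to 0.077 for Atp2a2, -0.089 to 0.12 for Lpl, -0.0815 to 0.046 for Hspb7, -0.0204 to 0.32 for Gsn, -0.13 to 0.12 for Fabp4, -0.43 to 0.32 for Cd4, -0.072 to 0.27 for Wt1 and -0.17 to 0.014 for Ckm. The cause of these changes was not tested. Depth limits the genes of few counts, such as Slc9a3 with 2 to 5 counts in KOCKD + RNLS.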
